A study of Homo sapiens with 6 samples.

Results

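The genes described here encode the glutathione and thioredoxin systems and some of their inducible partners. They were chosen by symbol, as GSS, GSR, GPX1, GPX4, TXN, TXNRD1, PRDX1, SRXN1, HMOX1 and OSGIN1, and all 10 were measured among the 14779 named genes of the table. Each had 1 probe set. The series holds 6 Affymetrix Human Gene 2.0 ST arrays of total RNA from LA1-55n, an established human neuroblastoma line. In 3 of them the cells carried a tet-on, that is doxycycline-inducible, hairpin against glycine decarboxylase (shGLDC99), and in the other 3 a tet-on hairpin against GFP (shGFP). Both populations had been kept in 0.5 µg/ml doxycycline for 7 days, so every sample had received the drug. A single hairpin against GLDC was used, and the labels do not say whether either population was a clone. Replicates are lettered a to c. The series calls them independent without giving the basis, and the p-values cover only the spread among these arrays.

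Glutathione is a tripeptide of glutamate, cysteine and glycine that serves as the main small thiol buffer of the cell. Glutathione peroxidases spend it to reduce peroxides, and glutathione reductase regenerates it with NADPH. The thioredoxin system works in parallel, passing electrons from NADPH through thioredoxin reductase and thioredoxin to the peroxiredoxins. Many of these genes are induced by the transcription factor NRF2, the product of NFE2L2, which binds antioxidant response elements when its inhibitor KEAP1 no longer holds it. Because glycine cleavage and glutathione synthesis both draw on glycine, the comparison asks whether these transcripts differed when the hairpin against GLDC took the place of the control hairpin.

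None of the 10 genes passed the test for a difference between shGLDC99 and shGFP cells in limma's test over all genes (0 of 10 at an adjusted p under 0.05, against 8.52% of the 14779 genes, 3.72% higher and 4.8% lower). At an unadjusted p under 0.05, 3 of 10 were lower (TXNRD1, GPX4 and PRDX1) and 0 were higher, where 24.4% of all genes passed in either direction. The differences, given throughout as shGLDC99 minus shGFP on the log2 scale (a base inferred from the range of the values), were small, from -0.23 for TXNRD1 to 0.07 for SRXN1. In all, 8 of the genes were lower and 2 higher, where 7629 of the 14779 genes were lower and 7150 higher. The median of the 10 was -0.10, against -0.0087 over all genes. The signs of GSS, GPX1, SRXN1 and HMOX1 turned with single arrays left out. The 95% intervals of the 10 differences together covered -0.39 to 0.35, which as ratios of shGLDC99 to shGFP run from 0.761 to 1.28. Where the prior variance followed intensity, TXNRD1, GPX4 and PRDX1 passed as lower. At that setting 2438 of the 14779 genes passed, 1350 of them lower. The count thus rests on how the variance is modelled.

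The promoters of the 10 genes were read for the letters of the antioxidant response element, since many of these genes, though not all, are listed as NRF2 targets. In the RefSeq windows of GRCh38.p14, from 250 bases before to 50 after a start, 6 of the 10 genes had an entry (GPX1, GPX4, TXN, TXNRD1, SRXN1 and OSGIN1). GSS, GSR, PRDX1 and HMOX1 had none. The letters searched on both strands were TGACNNNGC, found in 13.3% of all 35116 windows, TGAGNNNGC, found in 18.3%, and the AP-1 letters TGAGTCA, found in 4.95%. By gene, 2 of the 6 held TGACNNNGC or TGAGNNNGC, TXNRD1 and OSGIN1, where 33.7% of all genes with a window did. Their stretches up to the start are shown on the strand of the gene, the plus strand for both. Matched letters are in capitals.
TXNRD1, upstream start, chr12:104215529-104215779: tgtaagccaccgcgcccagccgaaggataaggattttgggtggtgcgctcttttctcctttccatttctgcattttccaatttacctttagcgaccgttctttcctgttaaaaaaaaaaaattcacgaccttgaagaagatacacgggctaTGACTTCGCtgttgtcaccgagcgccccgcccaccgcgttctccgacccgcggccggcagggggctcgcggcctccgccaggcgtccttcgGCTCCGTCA
TXNRD1, downstream start, chr12:104286782-104287031: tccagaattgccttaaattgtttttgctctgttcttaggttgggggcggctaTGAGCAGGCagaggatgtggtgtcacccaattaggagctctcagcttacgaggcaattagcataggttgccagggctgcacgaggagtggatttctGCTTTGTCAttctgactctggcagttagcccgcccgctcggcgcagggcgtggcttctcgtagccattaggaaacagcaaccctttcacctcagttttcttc
OSGIN1, chr16:83952990-83953239: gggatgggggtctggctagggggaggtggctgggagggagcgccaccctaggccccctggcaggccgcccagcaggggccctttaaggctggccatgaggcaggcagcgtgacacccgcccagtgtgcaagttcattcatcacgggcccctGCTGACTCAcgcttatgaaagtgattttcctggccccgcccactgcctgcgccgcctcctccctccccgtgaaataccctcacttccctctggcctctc

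In the upstream window of TXNRD1, TGACNNNGC occurred on the gene's strand 99 bases before the start and on the other strand across the start itself. In its downstream window, TGAGNNNGC lay 198 bases before the start and TGACNNNGC, on the other strand, 102 bases before it. In OSGIN1, TGAGNNNGC lay on the other strand 99 bases before the start and overlapped TGAGTCA. The letters in a window are a description and do not show that a factor binds there.

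The labels held for the targeted gene: GLDC read 5.98, 5.65 and 5.93 on the log2 scale on the shGLDC99 arrays and 7.85, 7.90 and 7.81 on the shGFP arrays. Over the whole table, r was 0.9925 to 0.9935 within groups and 0.9883 to 0.9903 between groups. Of 20 markers of sympathetic neuroblastoma cells 17 were measured, and 12 of these lay above the median gene level of 5.09, with GATA3 and UCHL1 the brightest. Of the 17, 3 fell (ISL1 by 1.09, GATA2 by 0.56 and GATA3 by 0.48) and 3 rose (CHGB by 0.41, GAP43 by 0.41 and INSM1 by 0.26). Of 50 markers of Schwann cells and glia, fibroblasts, endothelium, leukocytes and epithelium 28 were measured, and 3 of these (THY1, CD8A and CD68) lay above that level. Of these 28 markers 1 rose, LUM, a fibroblast proteoglycan, by 0.52 (limma adjusted p = 0.0125), and 0 fell. The summed linear intensity of the 3 measured fibroblast genes was 72.1 to 79.9 on the shGLDC99 arrays and 64.6 to 68.9 on the shGFP arrays. That of the 6 measured leukocyte genes was 174.6 to 190.9 on the shGLDC99 arrays and 161.0 to 174.1 on the shGFP arrays, also without overlap, with CD8A at 0.16 (limma adjusted p = 0.343) and CD68 at 0.21 (adjusted p = 0.195). The sums overlapped between groups for sympathetic markers (3062 to 3248 in shGLDC99 cells and 3192 to 3385 in shGFP cells), glia (62.6 to 83.1 and 67.0 to 74.8), endothelium (92.3 to 99.4 and 93.4 to 96.3) and epithelium (92.8 to 107.0 and 98.0 to 100.6). The part of these markers in the results below was not tested.

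**Figure D1:**
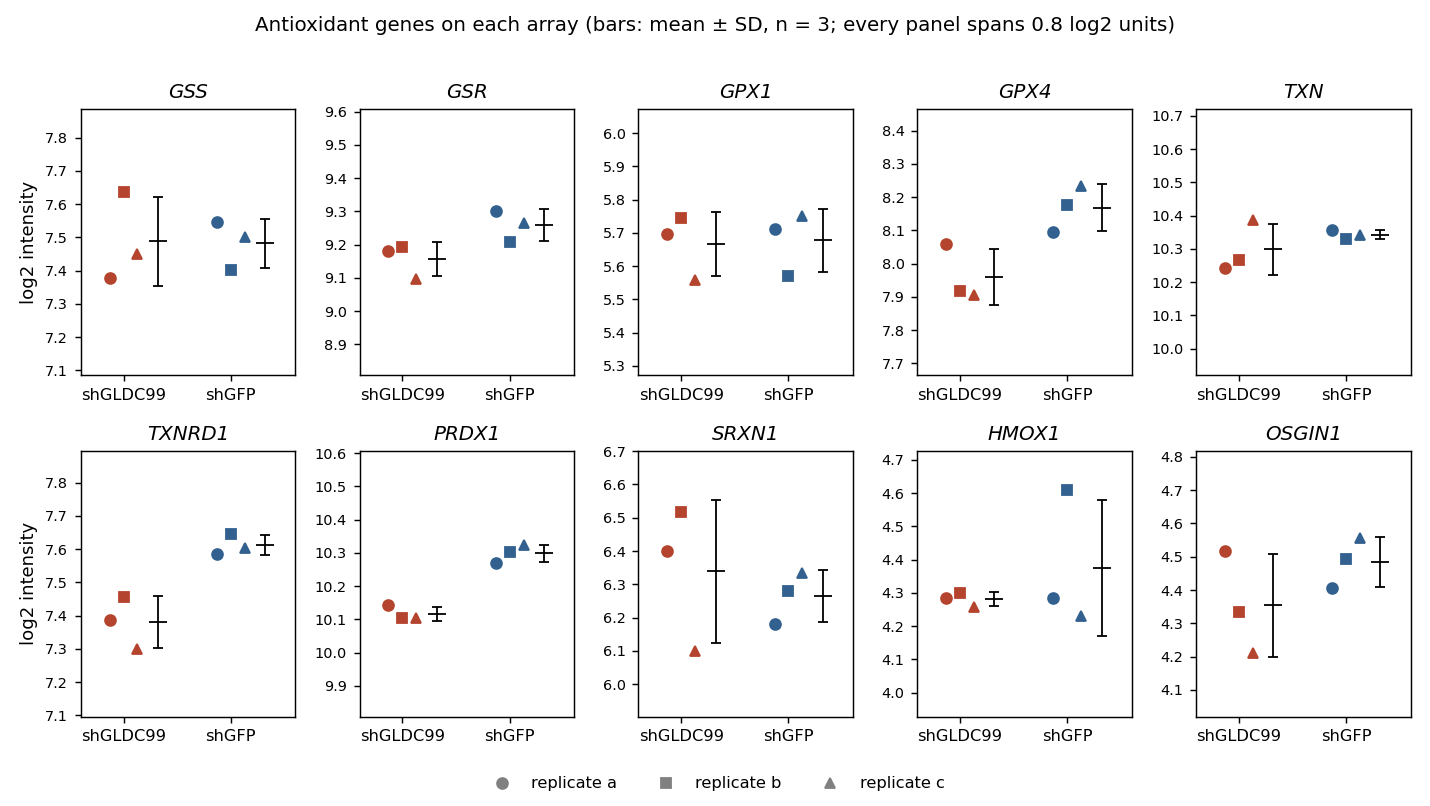
Log2 intensity of the 10 genes on each array, with shGLDC99 cells left of shGFP cells in every panel. Points are arrays, their shape gives the replicate letter, and bars give the mean ± SD of 3 arrays. The groups separate for GSR, GPX4, TXNRD1 and PRDX1, with all shGLDC99 arrays lower, and overlap for the other 6 genes.

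The groups did not overlap for 4 of the 10 genes, GSR, GPX4, TXNRD1 and PRDX1, and in all 4 the shGLDC99 arrays were the lower ones. Over all genes, 30.8% had groups that did not overlap, with all shGLDC99 arrays lower in 16.3% and higher in 14.5%. With 3 arrays against 3, an exact two-sided permutation test on such a gene gives p = 0.1, the smallest this design allows. In bulk RNA, fewer cells expressing a gene and less of its RNA per cell cannot be told apart.

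Glutathione synthetase (GSS) joins glycine to gamma-glutamylcysteine and is the step that consumes glycine. It read 7.38, 7.64 and 7.45 in shGLDC99 cells and 7.55, 7.40 and 7.50 in shGFP cells. The shGFP values lay inside the range of the shGLDC99 values. The log2 difference was 0.0055 ± 0.088 (SE), the smallest of the 10 genes in size, with a 95% interval of -0.20 to 0.22 (limma adjusted p = 0.980). Its sign turned with single arrays left out: without shGLDC99 array b, the highest of the 6, the difference was -0.068, and without shGFP array b it was -0.035.

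Glutathione reductase (GSR) returns oxidised glutathione to its reduced form. It read 9.18, 9.19 and 9.10 in shGLDC99 cells and 9.30, 9.21 and 9.26 in shGFP cells. All shGLDC99 arrays were lower, but the gap between the highest of them and the lowest shGFP array was 0.0146, less than the spread within either group. The means were 9.16 ± 0.0515 in shGLDC99 cells and 9.26 ± 0.0479 in shGFP cells (SD, n = 3 each). The log2 difference of -0.10 ± 0.065 (SE) was not past the threshold (limma adjusted p = 0.406), and its 95% interval was -0.25 to 0.053.

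Of the measured glutathione peroxidases, GPX1 is the abundant soluble enzyme of most cells and GPX4 the enzyme that reduces phospholipid peroxides within membranes and holds back ferroptosis. Both are selenoproteins. GPX1 read 5.70, 5.74 and 5.56 in shGLDC99 cells and 5.71, 5.57 and 5.75 in shGFP cells, with the groups overlapping almost wholly. Its log2 difference was -0.011 ± 0.083 (SE), with a 95% interval of -0.21 to 0.19 (limma adjusted p = 0.956). That sign rests on single arrays, since the difference was 0.044 without shGLDC99 array c, 0.0067 without shGFP array a and 0.025 without shGFP array c.

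GPX4 read 8.06, 7.92 and 7.91 in shGLDC99 cells and 8.09, 8.18 and 8.23 in shGFP cells. All shGLDC99 arrays were lower, but the gap between the groups was 0.037, less than the SD of either. Array a of each group lay closest to the other group. The means were 7.96 ± 0.0842 in shGLDC99 cells and 8.17 ± 0.0701 in shGFP cells (SD, n = 3 each), a log2 difference of -0.21 ± 0.075 (SE), or 1.15-fold lower. The 95% interval was -0.39 to -0.030, and the difference was not past the threshold over all genes (limma adjusted p = 0.145). It passed where the prior variance followed intensity (adjusted p = 0.0239). A difference of 0.32 would have been needed to pass at the spread of this gene.

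Thioredoxin (TXN) is the small dithiol protein that reduces peroxiredoxins, ribonucleotide reductase and other targets. It read 10.24, 10.27 and 10.39 in shGLDC99 cells and 10.36, 10.33 and 10.34 in shGFP cells. The 3 shGFP values lay close together, inside the wider range of the shGLDC99 values. Its log2 difference was -0.044 ± 0.066 (SE), with a 95% interval of -0.20 to 0.11 (limma adjusted p = 0.741).

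Cytosolic thioredoxin reductase (TXNRD1), the selenoprotein that recharges thioredoxin with NADPH, gave the largest difference of the 10 genes in size. It read 7.39, 7.46 and 7.30 in shGLDC99 cells and 7.59, 7.65 and 7.60 in shGFP cells. The groups were apart by 0.13, more than the SD of either. The means were 7.38 ± 0.0782 in shGLDC99 cells and 7.61 ± 0.0306 in shGFP cells (SD, n = 3 each). This is a difference of -0.23 ± 0.068 on the log2 scale (SE), 1.17-fold lower, and its 95% interval was -0.39 to -0.070. It was not past the threshold over all genes (limma adjusted p = 0.0863), where 0.29 would have been needed. Without the dimmest 40% of genes it passed (adjusted p = 0.0287), as it did where the prior variance followed intensity (adjusted p = 0.0129).

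Peroxiredoxin 1 (PRDX1), the abundant cytosolic enzyme that reduces hydrogen peroxide with electrons from thioredoxin, had the least spread of the 10 genes within groups. It read 10.14, 10.10 and 10.10 in shGLDC99 cells and 10.27, 10.30 and 10.32 in shGFP cells. The gap of 0.129 between the groups was several times the SD of either group (0.0221 in shGLDC99 cells and 0.0262 in shGFP cells). It differed by -0.18 ± 0.058 on the log2 scale (SE), 1.13-fold lower, with a 95% interval of -0.32 to -0.043 (limma adjusted p = 0.110). This standard error is wider than the spread of the gene's own arrays gives, because limma draws each gene's variance toward that of all genes. In an unmoderated linear model, which uses the gene's own spread alone, the adjusted p was 0.0268. It was 0.0353 without the dimmest 40% of genes and 0.00159 where the prior variance followed intensity.

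Sulfiredoxin (SRXN1) repairs peroxiredoxins that have been over-oxidised. It read 6.40, 6.52 and 6.10 in shGLDC99 cells and 6.18, 6.28 and 6.33 in shGFP cells. The shGLDC99 group held both the 2 highest values and the lowest one, so that its range enclosed the shGFP arrays. Its log2 difference was 0.07 ± 0.116 (SE), with a 95% interval of -0.20 to 0.35, the widest of the 10 (limma adjusted p = 0.753). It was -0.015 without shGLDC99 array b and 0.19 without shGLDC99 array c.

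Heme oxygenase 1 (HMOX1) breaks down heme and is induced by NRF2 and by many stresses. It read 4.28, 4.30 and 4.26 in shGLDC99 cells and 4.29, 4.61 and 4.23 in shGFP cells. The shGFP array b stood above the other 5 arrays, which lay between 4.23 and 4.30. The difference in log2 was -0.095 ± 0.107 (SE), with a 95% interval of -0.35 to 0.16 (limma adjusted p = 0.653), and without that array it was 0.022. OSGIN1, an oxidative stress response gene and NRF2 target linked to growth inhibition, read 4.52, 4.33 and 4.21 in shGLDC99 cells and 4.41, 4.49 and 4.56 in shGFP cells. Of the 6 arrays, shGLDC99 arrays b and c were the lowest, and array a lay within the shGFP range. The log2 difference was -0.13 ± 0.095 (SE), with a 95% interval of -0.36 to 0.097 (limma adjusted p = 0.469). HMOX1 and OSGIN1 were both dimmer than the median gene. Whether either exceeds background is not known, so a change in them could be understated.

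**Figure D2:**
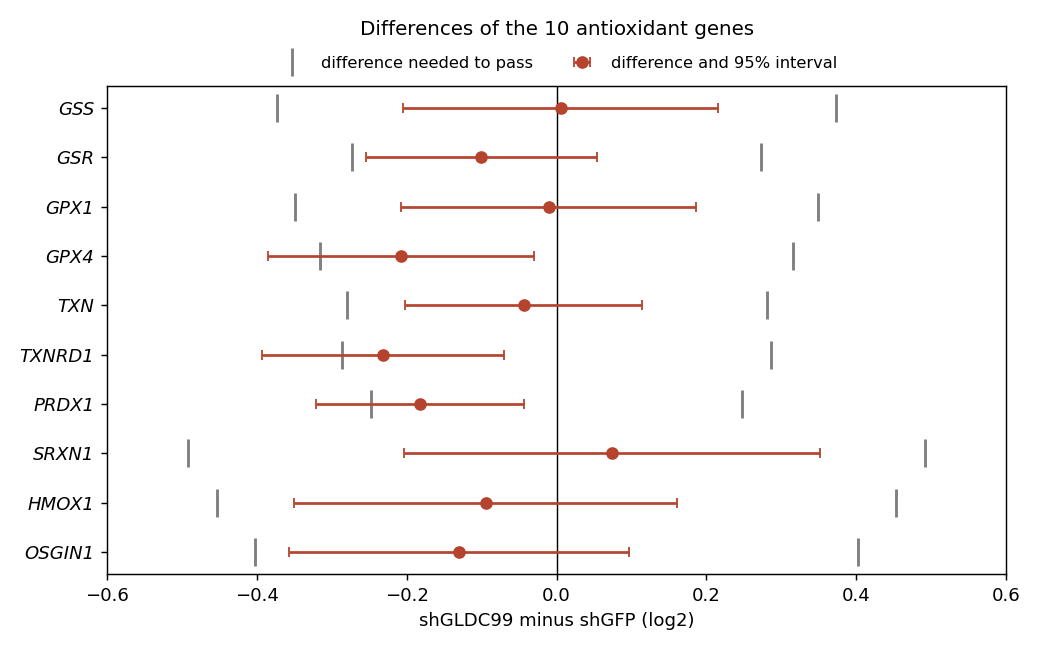
Differences of the 10 genes, shGLDC99 minus shGFP on the log2 scale, with 95% intervals from limma. Grey marks show how large a difference each gene's standard error would have needed to pass an adjusted p of 0.05 over all genes, from 0.25 for PRDX1 to 0.49 for SRXN1. The intervals of GPX4, TXNRD1 and PRDX1 lie below 0, and no point reaches its mark.

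The intervals of GPX4, TXNRD1 and PRDX1 excluded 0 before adjustment over all genes, and those of the other 7 included it. For SRXN1 the difference needed to pass was 0.49, and for PRDX1 it was 0.25, so the array could show a smaller change in PRDX1 than in SRXN1. The spread within groups was below the median of all genes for 7 of the 10 genes. Several of these genes have close copies or neighbours in the RefSeq annotation. TXN has 7 named pseudogenes, GPX1 has 2, and PRDX1 and SRXN1 have 1 each. EID3, a pseudogene and an antisense transcript overlap the bounds of TXNRD1, MMACHC those of PRDX1, MYH7B those of GSS, NECAB2 those of OSGIN1 and a noncoding RNA those of SRXN1. Whether the probe sets also read these was not tested.

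The wider glutathione and thioredoxin pathway was read from 13 lists. They were written from general knowledge but with earlier results of these data known, so their share of calls is not an independent test. These hold 254 genes besides the 10, of which 170 were measured, and 10 rose and 9 fell. The share called, 19 of 170, stands beside 8.52% of all genes, and the median difference of the 170 genes was -0.015. With any single array removed, 7 to 9 listed genes were called. Past the threshold whichever array was left out were HSPB1, GCH1, MBOAT1, ACSL4, SESN3 and TMX4, and each of the other 13 lost its call without at least 1 array. Among these 13, BTRC, GGT7, GSTA4, SELENOI, SEPHS2, TMX1 and UGDH passed in none of the fits with 1 array left out. Their smallest limma adjusted p there was 0.0663, for BTRC. With the replicate letter as a block, 16 of the 19 lost their call.

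Of 10 measured genes of glutathione synthesis and breakdown, 1 rose and 0 fell, with a median of 0.02. GGT7, a member of the gamma-glutamyltransferase family, read 7.42, 7.30 and 7.22 in shGLDC99 cells and 6.97, 7.03 and 6.88 in shGFP cells, and rose by 0.36 ± 0.079 (SE, limma adjusted p = 0.0423). OPLAH, the oxoprolinase that returns glutamate from glutathione breakdown, differed by -0.31 (adjusted p = 0.104). GCLC and GCLM, the subunits of the rate-limiting ligase, and CHAC1 were not measured here. Of 8 peroxidase and reductase genes 1 fell and 0 rose. That gene was GPX3, the secreted peroxidase, which read 4.45, 4.17 and 4.33 in shGLDC99 cells and 4.75, 4.76 and 4.88 in shGFP cells and fell by 0.48 ± 0.091 (SE, limma adjusted p = 0.0270). These levels lie below the median gene level, so the size of the fall is uncertain. GPX2 differed by 0.13 (adjusted p = 0.612).

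Of 22 glutathione S-transferases, which attach glutathione to electrophiles, 1 rose and 0 fell, with a median of -0.02. GSTA4, which acts on the lipid peroxidation product hydroxynonenal, rose by 0.28 to 8.74 in shGLDC99 cells, against 8.46 in shGFP cells (limma adjusted p = 0.0411). MGST2, a microsomal transferase, differed by 0.31 (adjusted p = 0.0805). Of 8 glutaredoxins and glyoxalases 0 changed by limma, and 0 had an unadjusted p under 0.05. Their differences lay between -0.035 and 0.14, with HAGH at 0.14 (adjusted p = 0.224) and GLRX3 at 0.07 (adjusted p = 0.555).

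Of 27 measured thioredoxin-fold genes 2 rose and 1 fell, with a median of -0.03. Over all genes 3.72% rose and 4.8% fell. TMX4, a thioredoxin-like protein of the endoplasmic reticulum membrane, read 7.84, 7.88 and 7.79 in shGLDC99 cells and 7.42, 7.37 and 7.25 in shGFP cells, and rose by 0.49 ± 0.071 (SE, limma adjusted p = 0.0114). TXNDC16 rose by 0.45 (adjusted p = 0.0194). TMX1, a relative of TMX4 in the same membrane, fell by 0.28 (adjusted p = 0.0450). TXNIP, the protein that binds and inhibits thioredoxin, was named after its values were seen. It differed by -0.32, with all shGLDC99 arrays lower (adjusted p = 0.0504).

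Among peroxiredoxins, sulfiredoxin and sestrins, 1 of 9 measured rose and 0 fell. SESN3, a sestrin, a stress-induced inhibitor of mTORC1, read 9.31, 9.31 and 9.41 in shGLDC99 cells and 8.82, 8.82 and 8.84 in shGFP cells. The groups were far apart relative to their spread, and the rise was 0.52 ± 0.062 (SE), or 1.43-fold (limma adjusted p = 0.00774). SESN2, which is a target of NRF2 and of the stress factor ATF4, differed by 0.31 (adjusted p = 0.0683). Of 9 measured genes of the list of superoxide dismutases, catalase and methionine sulfoxide reductases, which did not include a superoxide dismutase, 1 fell and 0 rose. MSRB1, a selenoprotein that repairs oxidised methionine, fell by 0.56 to 4.67 in shGLDC99 cells, against 5.23 in shGFP cells (limma adjusted p = 0.0343). PARK7 differed by 0.21 (adjusted p = 0.105).

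**Figure D3:**
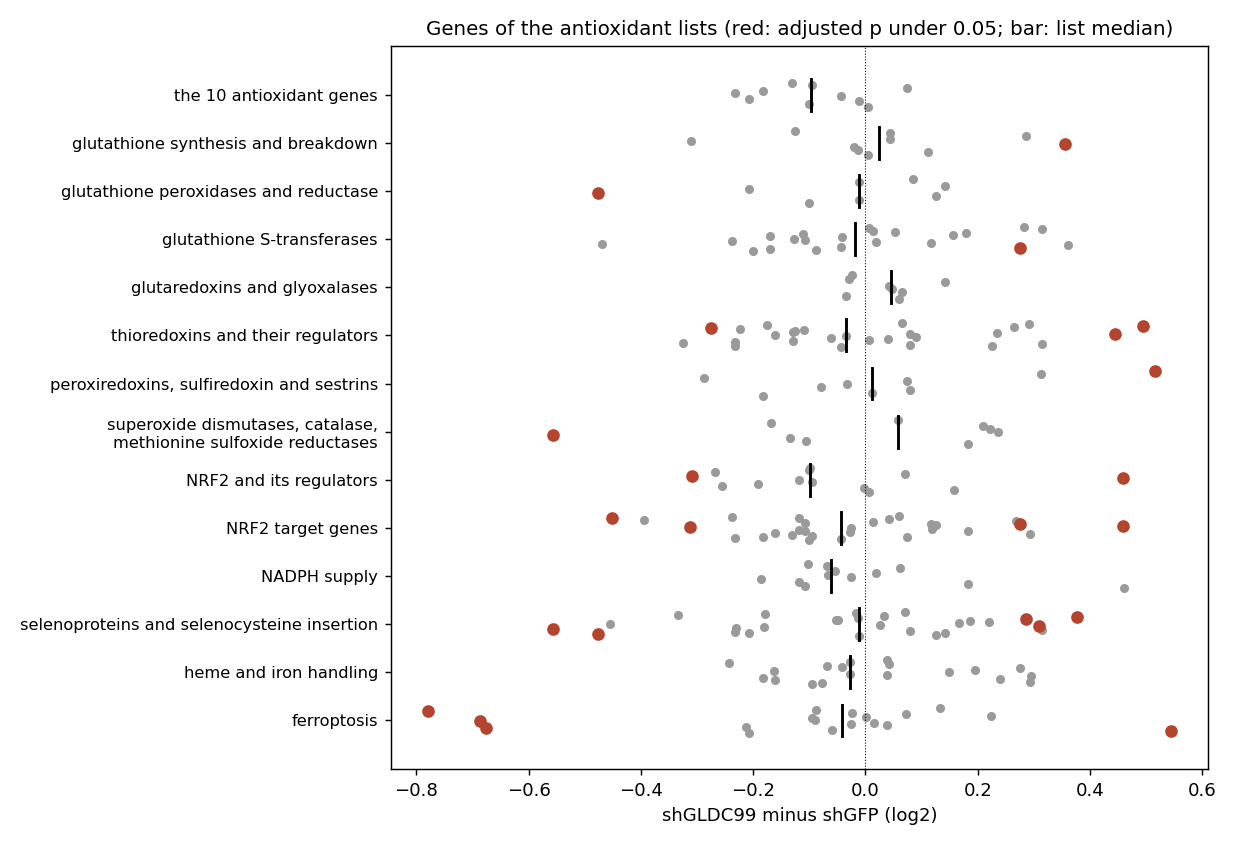
Differences of every measured gene in the 13 pathway lists and in the 10 genes, shGLDC99 minus shGFP on the log2 scale. Each point is a gene, red points are past an adjusted p of 0.05 over all genes, and black bars are list medians. The 10 genes hold no red point, and the red points of the other lists lie on both sides of 0.

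NRF2 itself (NFE2L2), named after its values were seen, read 7.88, 7.77 and 7.87 in shGLDC99 cells and 7.87, 7.78 and 7.85 in shGFP cells, a log2 difference of 0.0062 (limma adjusted p = 0.967). Its transcript level does not report its activity, which is set mainly by protein turnover. Of 13 measured NRF2 regulators 1 rose and 1 fell, with a median of -0.10. SQSTM1, an autophagy receptor that binds KEAP1, rose by 0.46 (adjusted p = 0.0263), and BTRC, a ubiquitin ligase subunit that marks NRF2 for breakdown, fell by 0.31 (adjusted p = 0.0274). KEAP1, also named after its values were seen, differed by -0.26 with overlapping groups (adjusted p = 0.201).

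Of 29 measured NRF2 targets, 7 of them among the 10 genes, 2 rose and 2 fell. The median was -0.04. Besides SQSTM1 and GSTA4, which rose, UGDH, the enzyme that makes UDP-glucuronate, read 9.12, 9.20 and 9.21 in shGLDC99 cells and 9.48, 9.43 and 9.56 in shGFP cells and fell by 0.31 ± 0.067 (SE, limma adjusted p = 0.0382). TIPARP, a mono-ADP-ribosyltransferase, fell by 0.45 (adjusted p = 0.0179). Of the 19 targets with a promoter window outside the 10 genes, 11 held TGACNNNGC or TGAGNNNGC. Over all genes with a window 33.7% did. The 4 changed targets, 2 higher and 2 lower, were among these 11. A link between the letters and the changes was not tested. NQO1, GCLC, GCLM and SLC7A11, which are among the usual NRF2 reporter genes, were not measured here. Of 12 genes of NADPH supply 0 changed by limma, where 3 had an unadjusted p under 0.05. PGLS, of the pentose phosphate pathway, differed by 0.46 (adjusted p = 0.0537) and RPIA, of the same pathway, by -0.19 (adjusted p = 0.107).

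Of 27 measured selenoproteins and genes of selenocysteine insertion, 3 rose and 2 fell, with a median of -0.011. The list includes GPX1, GPX4 and TXNRD1. SECISBP2L, a relative of the factor that reads the selenocysteine insertion element, read 7.52, 7.51 and 7.49 in shGLDC99 cells and 7.07, 7.19 and 7.14 in shGFP cells and rose by 0.38 ± 0.063 (SE, limma adjusted p = 0.0184). SEPHS2, which makes the selenium donor, rose by 0.29 (adjusted p = 0.0477), and SELENOI, a phospholipid synthesis enzyme, rose by 0.31 (adjusted p = 0.0325). The falls were those of GPX3 and MSRB1.

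The largest differences in the pathway lists were those of genes linked to ferroptosis, the lipid peroxide death that GPX4 restrains. Of 18 measured, 1 rose and 3 fell, where 8.52% of all genes were called in either direction. MBOAT1, a phospholipid acyltransferase, read 6.48, 6.40 and 6.57 in shGLDC99 cells and 7.21, 7.16 and 7.43 in shGFP cells, and fell by 0.78 ± 0.093 (SE), or 1.72-fold lower (limma adjusted p = 0.00742). HSPB1, a small heat shock protein, fell by 0.69 to 9.29 in shGLDC99 cells, against 9.98 in shGFP cells (adjusted p = 0.00456). GCH1, which opens tetrahydrobiopterin synthesis, fell by 0.68 (adjusted p = 0.00551). ACSL4, which loads polyunsaturated fatty acids into phospholipids, rose by 0.54 (adjusted p = 0.00885). With the replicate letter as a block, ACSL4 lost its call (limma adjusted p = 0.0535) and the 3 falls kept theirs. MBOAT1 and GCH1 are described as protecting against ferroptosis and ACSL4 as favouring it. These roles are given only for genes picked by their calls. The other 14 of the 18 were not past the threshold, and the list median was -0.042. Lipid peroxidation and cell death were not analysed here. Of 19 genes of heme and iron handling, HMOX1 among them, 0 changed by limma, where 5 had an unadjusted p under 0.05. PCBP1, an iron chaperone, differed by -0.24 (adjusted p = 0.0732) and BLVRA, which acts after heme oxygenase, by 0.29 (adjusted p = 0.121).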

How the data were processed

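The values the authors deposited, 1 per probe set and array, were read as log2 intensity. That base is inferred: the table reaches 13.28, whereas a natural log of a 16-bit scan cannot pass 11.09. Partek was used per the submitters' processing notes, but the steps of background correction, normalization and summarisation are not stated there. Array medians were 4.28 to 4.33, and nothing was renormalized. The number of arrays limits the precision. Of 31135 probe sets 15098 carried 1 gene symbol, 0 carried several and 16037 had none here. All 15098 matched the RefSeq gene table by Entrez ID. Each of 14779 genes took its brightest probe set.

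The test was limma 3.58.1 (lmFit and eBayes without covariates, in R 4.3.3), with Benjamini-Hochberg adjustment over 14779 genes, and "rose" or "fell" means an adjusted p under 0.05. Errors are moderated standard errors. The members and lists were chosen with earlier results of these data known. The rule for names took the 10 genes, GLDC, every listed pathway gene past the threshold and otherwise the 2 of smallest adjusted p, and the brightest markers. Figures used matplotlib 3.10.9, pandas 2.3.3 and numpy 2.4.6, and the files were read with data.table (version 1.17.8). Same-lettered arrays did not deviate together (r of deviations -0.0119, 0.0182 and -0.00106), and the letters were not used as pairs. Whether same-lettered samples were prepared together cannot be told from these values.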

Additional observations from a re-analysis of the deposited data

How the results depend on the processing

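The alternatives were quantile normalization again, centring arrays on their medians, leaving out the dimmest 40% of genes, averaging probe sets, the replicate letter as a block, a prior variance that follows intensity (the trend), array weights, no moderation, all 31135 probe sets and leaving out each array in turn. Against 0 of the 10 genes, 2 fell once the dimmest 40% were removed (of 8 left, since HMOX1 and OSGIN1 were removed), 3 fell with the trend and 1 fell without moderation. The count stayed at 0 under the other alternatives, and with any 1 array left out it was 0. Against 1259 changed of 14779 genes in all, 2221 of 8867 changed without the dimmest 40%, 1252 of them lower. With the trend 2438 of 14779 changed, 1350 of them lower, and without moderation 1016 changed, 602 of them lower. With the replicate block 229 changed, and 461 to 546 with 1 array left out. In the pathway lists, here with the 10 genes counted in, 19 of 180 measured genes changed. Without the dimmest 40% of genes 38 of 144 changed, with the trend 39 and with the replicate block 3. Over all probe sets 11 changed, and 7 to 9 with 1 array left out. Fewer samples or residual degrees of freedom, or more features tested, come with the block, the left-out arrays and all probe sets; the cause of the other shifts was not tested. GLDC stayed past the threshold under all 15 alternatives, at -2.07 to -1.90. Of 148 values of the 10 genes under alternatives 8 turned sign, all with an adjusted p above 0.6. GSS was -0.0022 with median centring and -0.068 (without shGLDC99 b; also below 0 without shGFP b) to 0.061 over left-out arrays. Over left-out arrays GPX1 ran from -0.064 to 0.044 (without shGLDC99 c; also above 0 without shGFP a or c), SRXN1 from -0.015 (without shGLDC99 b) to 0.19, and HMOX1 from -0.17 to 0.022 (without shGFP b). Signal over background is not known here, which limits HMOX1, OSGIN1 and the other dim genes.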
